A study of Mus musculus with 8 samples.

Results

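Matrix metalloproteinases (MMPs) are zinc-dependent proteases that cut extracellular matrix and cell surface proteins, and tissue inhibitors of metalloproteinases (TIMPs) block them. The 10 genes described here were chosen by name as rows of an RNA-seq table of mouse kidney, out of 35976 listed genes. They and the other gene lists below were chosen with earlier results of these data known, so counts over them are no independent test. They are the membrane-anchored protease Mmp14, the gelatinases Mmp2 and Mmp9, the stromelysins Mmp3 and Mmp10, the matrilysin Mmp7, the macrophage elastase Mmp12, the collagenase Mmp13, and the inhibitors Timp2 and Timp3. Of the 10 genes, 7 had enough reads to be tested and 3 (Mmp3, Mmp10 and Mmp12) did not.

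The libraries came from kidneys at postnatal day 3. The YAP group, with the genotype Slc12a3 Cre/+; C1 YAP/+, held 2 female and 2 male libraries, and the Ctrl group, Slc12a3 Cre/+; C1 +/+, likewise held 2 of each sex. All 8 libraries therefore came from kidneys that carried the Slc12a3 Cre allele. The protein of Slc12a3 carries NaCl into cells of the distal convoluted tubule, so Cre is expected in a short stretch of the nephron while RNA was read from the kidney. The study set out to compare kidneys in which Yap1 activity had been raised in the distal nephron with their controls. What C1 stands for is not given in the labels. Nor is it said there whether each library is a separate animal, so the p-values rest on the spread among libraries, which may be technical.

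Most MMPs are secreted as inactive proenzymes and are opened by other proteases. MMP14 is made in active form at the cell surface, where it cuts collagen and, with TIMP2 as a bridge, activates the proenzyme of MMP2. TIMP3 differs from the other inhibitors in that it binds to the matrix, and it also inhibits some ADAM proteases. In kidney, MMP7 is known as a protease that damaged tubular epithelium switches on.

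The depth of the libraries followed the replicate number. Reads recovered on the listed genes came to 75728195 to 84580112 in the 4 replicate 1 libraries, called deep here, and to 22082596 to 24399020 in the 4 replicate 2 libraries, called shallow. Each depth batch held 1 library of every sex and genotype. Levels are RPKM (reads per kilobase of gene and per 1000000 reads) divided by a scaling factor per library, called scaled RPKM, and changes are log2(scaled RPKM + 0.1), YAP over Ctrl, fitted with limma. A gene passed when its p-value, adjusted by the Benjamini-Hochberg method over 18156 tested genes, was under 0.05. Markers of the proximal tubule, podocyte, thick ascending limb and distal convoluted tubule all had reads. Most of these markers fell in YAP libraries, as counted below. Slc12a3 itself averaged 1.41 ± 0.418 scaled RPKM in YAP and 14.1 ± 1.96 in Ctrl libraries (SD, n = 4 each). Yap1 did not pass, at 35.5 ± 0.771 scaled RPKM in YAP and 35.5 ± 3.98 in Ctrl libraries (SD, n = 4 each). Whether reads of the transgene would be counted on Yap1 is not known here, so this level does not check the labels.

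Of the 10 genes, 5 lie in 1 cluster on chromosome 9, and the sequences before their starts share a short element. The letters TGAGTCA, or TGACTCA on the other strand, are a binding sequence of the AP-1 transcription factors, which are long known as regulators of MMP genes. RefSeq promoter windows of 300 bases (250 before and 50 after a start, GRCm38.p6) were at hand for 8 of the 10 genes. In 5 of these 8 genes a window held the AP-1 letters, against 5.2% of all 32851 windows. The 5 were the members of the cluster. Of its other Mmp genes, Mmp1a and Mmp1b also held the letters, and Mmp8, Mmp20 and Mmp27 did not. Over all listed MMPs and TIMPs, 7 of the 22 genes with a window held them. The cluster genes are related by descent, and a match is a description of the letters, not a shown binding site. The matches of the 5 members are set out here because these genes were the ones with few reads. Each is printed on the plus strand with 17 bases on either side and the match in capitals.
Mmp3: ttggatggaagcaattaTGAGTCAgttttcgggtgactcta
Mmp7: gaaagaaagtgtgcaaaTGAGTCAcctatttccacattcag
Mmp10: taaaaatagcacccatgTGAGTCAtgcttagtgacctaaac
Mmp12: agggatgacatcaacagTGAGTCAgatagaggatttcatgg
Mmp13: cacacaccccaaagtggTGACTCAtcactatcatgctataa
These stretches are chr9:7445759-7445799 for Mmp3, chr9:7692010-7692050 for Mmp7, chr9:7502262-7502302 for Mmp10, chr9:7347313-7347353 for Mmp12 and chr9:7272462-7272502 for Mmp13. Counted from the annotated start, the first base of the match stood at -46 in Mmp3, -63 in Mmp7 and Mmp10, -44 in Mmp12 and -35 in Mmp13. For Mmp12 the match lay before the second of its 2 listed starts, and for Mmp7 before the first of its 2, and in both genes the window at the other start had none.

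The windows of Mmp14, Timp2 and Timp3, genes with high levels, held no AP-1 letters. The letters GGAATG or CATTCC are a core of the sequence bound by the TEAD partners of YAP. They were in the windows of 0 of the 8 genes, against 14.7% of all windows. Over all listed MMPs and TIMPs, 1 of the 22 genes with a window held them, Timp1, at -247. The letters AGGAAG or CTTCCT, known as the PEA3 element of Ets factors, were in 6 of the 8, against 35.4% of all windows. The 250 bases before the start are given for Mmp14 and Timp2, the pair with the steadiest rises, with a PEA3 match in capitals. Mmp14 is at chr14:54431348-54431597 on the plus strand, with 55.2% G and C. Timp2 is at chr11:118355412-118355661 on the minus strand, with 68.0% G and C and no match of the 3 motifs. The Timp2 stretch lies before a RefSeq start but inside the GENCODE coordinates of the gene (118301069 to 118355740). The median G and C content of the same 250 bases over all windows was 52.4%.
Mmp14: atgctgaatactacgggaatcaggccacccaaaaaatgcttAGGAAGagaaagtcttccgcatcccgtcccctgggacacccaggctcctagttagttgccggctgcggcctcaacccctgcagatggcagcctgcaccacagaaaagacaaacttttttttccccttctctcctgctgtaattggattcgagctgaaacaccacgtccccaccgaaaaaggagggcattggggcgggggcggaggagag
Timp2: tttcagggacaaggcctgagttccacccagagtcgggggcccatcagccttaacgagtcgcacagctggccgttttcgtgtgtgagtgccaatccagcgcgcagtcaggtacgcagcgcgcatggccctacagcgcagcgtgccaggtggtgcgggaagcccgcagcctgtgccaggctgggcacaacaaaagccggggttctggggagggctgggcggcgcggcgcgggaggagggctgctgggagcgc

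Mmp14 and Timp2 rose in YAP kidneys, Mmp7 rose on few reads, Mmp13 fell at a low level, and Mmp2, Mmp9 and Timp3 did not pass. That made 4 of the 7 tested genes past the threshold, 3 higher and 1 lower, against 26.1% of all genes tested (13.2% higher and 13.0% lower). YAP and Ctrl libraries did not overlap in 4 of the 7, the same 4 genes, against 30.5% of all genes tested. The same 4 passed with limma-voom on recovered reads, where 27.8% of genes did, and with the replicate number as a block, where 30.1% did. Mmp7 passed the filter on low values only through its YAP libraries, so it had to differ between the groups to be tested at all. Without it 3 of 6 genes passed in each of these fits, and the same 3 did not overlap. The median log2 change was 0.32 over the 7 genes, with Mmp7 among them, and 0.01 over all genes tested.

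Mmp14 (chromosome 14, 54431612 to 54445364, GRCm38, GENCODE M21, protein coding) was the clearest rise among the proteases. In YAP libraries it stood at 77.0 and 82.9 scaled RPKM in females and 88.8 and 68.6 in males. In Ctrl libraries it stood at 48.3 and 54.9 in females and 45.6 and 54.1 in males. Every YAP library lay above every Ctrl library. Mmp14 averaged 79.3 ± 8.59 scaled RPKM in YAP and 50.7 ± 4.48 in Ctrl (SD, n = 4 each), a 1.56-fold change with a 95% interval of 1.32 to 1.84 (limma, adjusted p = 0.0022). Among deep libraries the log2 change was 0.81 and among shallow ones 0.47, and it passed in both (limma, adjusted p = 0.00713 and 0.0186), where 18.5% and 19.5% of genes passed. These are mixtures of cells, in which more cells of a type and more RNA per cell cannot be told apart.

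Mmp2 (chromosome 8, 92827291 to 92853420), whose product MMP14 activates, was at a high level in both groups. It stood at 56.2 and 57.2 scaled RPKM in YAP females and 47.8 and 56.9 in YAP males. In Ctrl it stood at 52.9 and 59.6 in females and 46.9 and 53.6 in males. The groups overlapped over nearly their whole range. The 95% interval of the YAP over Ctrl fold was 0.895 to 1.17 (limma, adjusted p = 0.812). Per library, the ratio of Mmp14 to Mmp2 was 1.21 to 1.86 in YAP and 0.914 to 1.01 in Ctrl, with no overlap.

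Timp2 (chromosome 11, 118301069 to 118355740, minus strand), the inhibitor that bridges MMP14 and the MMP2 proenzyme, rose with Mmp14. It stood at 71.2 and 69.0 scaled RPKM in YAP females and 71.3 and 77.5 in YAP males. In Ctrl it stood at 52.6 and 57.7 in females and 48.1 and 51.5 in males. All 4 YAP libraries were above all 4 Ctrl libraries. Timp2 averaged 72.2 ± 3.65 in YAP and 52.5 ± 3.96 in Ctrl (SD, n = 4 each), a 1.38-fold change with a 95% interval of 1.22 to 1.56 (limma, adjusted p = 0.00309). Among deep libraries the log2 change was 0.50 (limma, adjusted p = 0.0277), and among shallow ones 0.43 (0.0367). The ratio of Mmp14 to Timp2 ran from 0.886 to 1.25 in YAP and from 0.919 to 1.05 in Ctrl, so these ranges overlapped.

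Timp3 (chromosome 10, 86300372 to 86349506), the matrix-bound inhibitor, did not pass over all libraries. It stood at 75.2 and 59.7 scaled RPKM in YAP females and 80.1 and 83.8 in YAP males. In Ctrl it stood at 58.8 and 67.0 in females and 50.8 and 61.7 in males. YAP female replicate 2 lay within the Ctrl range, and the other 3 YAP libraries lay above it. The fold was 1.25 with a 95% interval of 1.02 to 1.53 before adjustment (limma, adjusted p = 0.104). Its log2 change was 0.50 among deep libraries, where it passed (limma, adjusted p = 0.0386), and 0.14 in the shallow ones, where it did not (0.617). It also passed without female_YAP replicate 2 (adjusted p = 0.0305).

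**Figure D1:**
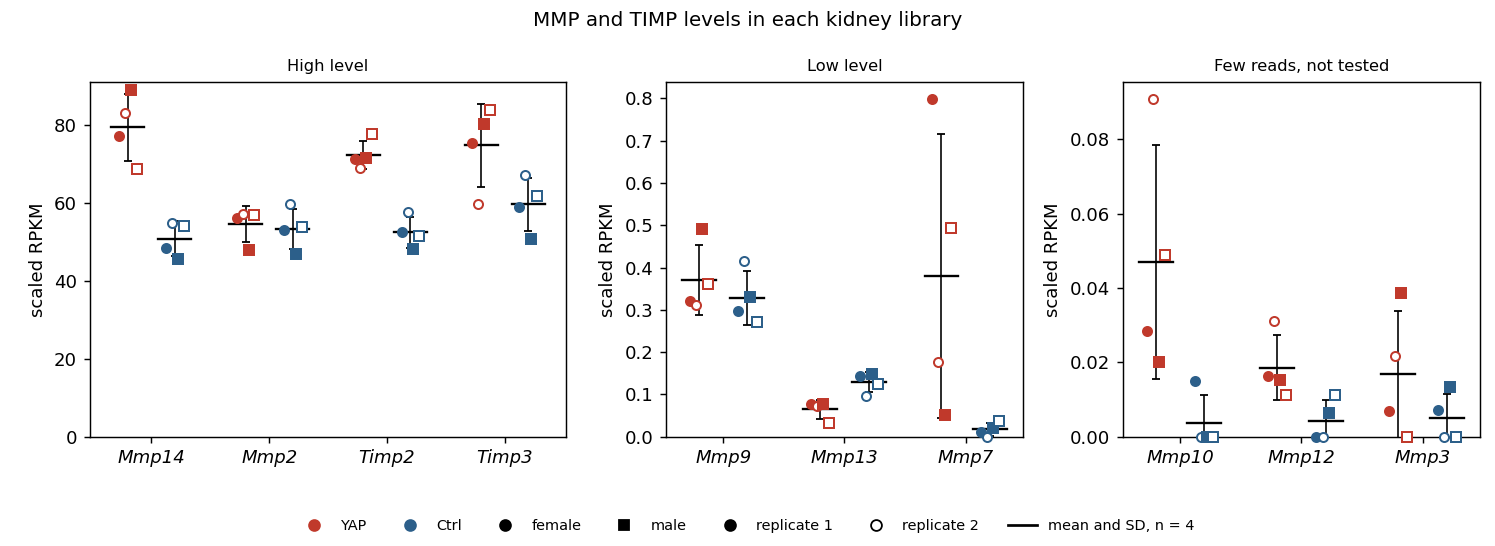
Scaled RPKM (y axes, 3 scales) of the 10 genes in each library, with YAP in red left of Ctrl in blue. Circles are female and squares male, filled symbols are replicate 1 and open symbols replicate 2, and black lines are the mean and SD of 4 libraries. Mmp14 and Timp2 separate fully, Mmp2 overlaps, and the YAP libraries of Mmp7 run from 0.0519 to 0.799.

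The 4 high genes held nearly all of the summed level of the 10, from 99.6% to 99.8% in every library. In YAP the order by mean was Mmp14, Timp3, Timp2 and Mmp2. In Ctrl it was Timp3, Mmp2, Timp2 and Mmp14. Mmp14 was therefore first in YAP and last of the 4 in Ctrl. The ranges of neighbours in these orders overlapped, except that Mmp2 lay below Timp2 in every YAP library with no overlap. Both orders rest on values per gene length. The sum of Timp2 and Timp3 divided by the sum of the 8 MMPs was 0.914 to 1.28 in YAP and 1.05 to 1.09 in Ctrl. The YAP range thus took in the Ctrl range.

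The other 6 genes averaged 0.380 scaled RPKM or less in YAP and 0.329 or less in Ctrl, and most of them rested on few reads. Mmp7 (chromosome 9, 7692090 to 7699585), the small epithelial matrilysin, was close to silent in Ctrl and uneven in YAP. It had 72 and 5 reads in YAP females and 5 and 13 in YAP males. In Ctrl it had 1 and 0 reads in females and 2 and 1 in males. As scaled RPKM these were 0.799, 0.176, 0.0519 and 0.494 in YAP, and at most 0.0377 in Ctrl. All YAP libraries were above all Ctrl libraries, yet 1 YAP female library gave 72 of the 95 YAP reads. Over all libraries the read ratio was 22.8 with a 95% counting interval of 8.61 to 85.3, which covers counting error only. On the log2 scale with its pseudocount the change was 1.73 (limma, adjusted p = 0.0325), and it was 3.45 with a pseudocount of 0.01 and 0.41 with 1, where it did not pass (adjusted p = 0.0794). It passed without female_YAP replicate 2 (0.0385) or male_YAP replicate 1 (0.00552), and missed without any of the other 6 libraries (0.0541 to 0.0865). Mmp7 could not be fitted in the deep libraries alone, being under the filter there, and was at 1.80 in the shallow ones. In the shallow libraries it reached the filter only through YAP (5 and 13 reads, against 0 and 1 in Ctrl). It had to be higher in YAP to be fitted there, so the 1.80 is no separate check. An antisense gene, AV064505, overlaps 3542 bases of Mmp7, and without a stated strand setting their reads cannot be told apart where both are transcribed. AV064505 itself had 2 reads, both in YAP female replicate 1.

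Mmp13 (chromosome 9, 7272514 to 7283331), a collagenase best known from cartilage and bone, was the 1 member that fell. It had 17 and 5 reads in YAP females and 18 and 2 in YAP males, against 30 and 6 in Ctrl females and 33 and 8 in Ctrl males. As scaled RPKM this was 0.0317 to 0.0786 in YAP and 0.0962 to 0.149 in Ctrl, with no overlap. The log2 change was -0.47 with a standard error of 0.15 (limma, adjusted p = 0.0475). The call was close to the threshold: it was kept in 5 of the 19 alternatives that gave a value and lost in 14, with the fall kept in each. In the deep and shallow libraries alone it was -0.47 and -0.48 and passed in neither (adjusted p = 0.0983 and 0.261).

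Mmp9 (chromosome 2, 164940780 to 164955850), the gelatinase of neutrophils and macrophages among other cells, did not pass. It stood at 0.320 and 0.312 scaled RPKM in YAP females and 0.491 and 0.361 in YAP males. In Ctrl it stood at 0.296 and 0.416 in females and 0.329 and 0.272 in males. The groups overlapped, and the 95% interval of the fold was 0.840 to 1.43 (limma, adjusted p = 0.626). Among deep libraries the log2 change was 0.27, and among shallow ones -0.004.

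Mmp10, Mmp12 and Mmp3 had too few reads to test and are given as counts. Mmp10, a stromelysin, had 13 reads in YAP, with 2 to 4 in each library, and 2 in Ctrl, both in 1 library. The ratio was 6.23 with a 95% counting interval of 1.41 to 56.9. Mmp12, the elastase named after macrophages, had 14 reads in YAP, with 1 to 5 in each library, and 3 in Ctrl. Its ratio was 4.48 with an interval of 1.25 to 24.3. Mmp1b, on the other strand, overlaps the end of Mmp12 and had 0 reads. Mmp3, the closest relative of Mmp10 here, had 8 reads in YAP and 3 in Ctrl, a ratio of 2.56 with an interval of 0.614 to 14.96 that includes 1. The intervals treat reads as independent and leave out the spread between libraries. How reads shared by the near relatives Mmp3 and Mmp10 were counted is not given in the sources used here. The 3-read floor of these genes lay between 0.0092 and 0.0742 scaled RPKM, and most of their values lay under it, so their levels are uncertain at this depth.

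**Figure D2:**
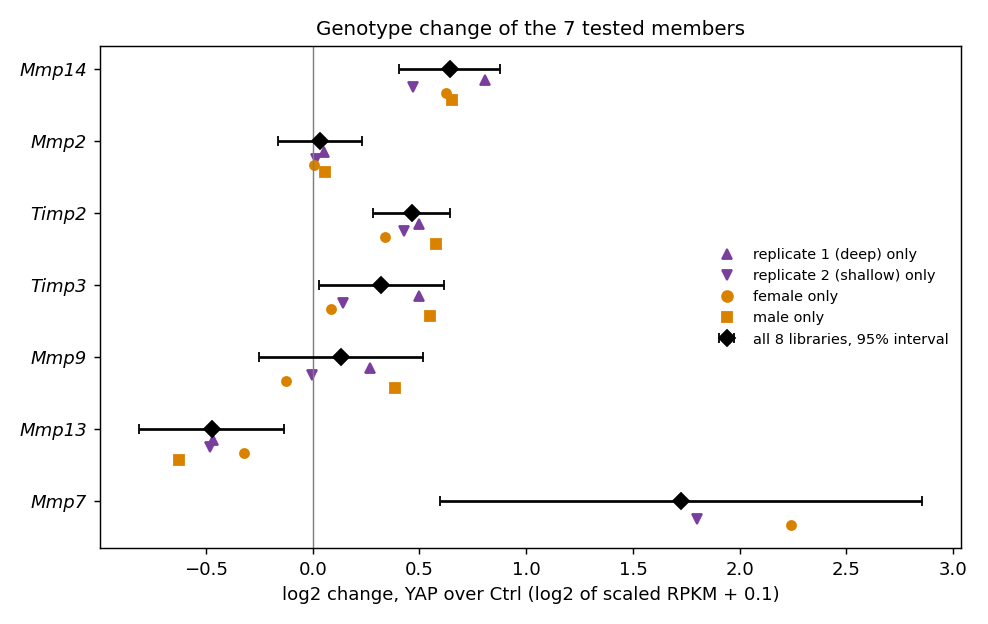
Log2 change (x axis, YAP over Ctrl, log2 of scaled RPKM + 0.1) of the 7 tested genes. Black diamonds with bars are the fit of all 8 libraries and its 95% interval, and coloured symbols are fits of the deep, shallow, female or male libraries alone. Mmp14 and Timp2 stay right of 0 in every subset, the subsets of Mmp9 lie on both sides of 0, and Mmp7 has no value in the deep or male libraries. Mmp7 entered the shallow and female fits only through its YAP libraries.

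The sexes were compared by the interaction of sex and genotype, and 0 of the 18156 genes passed (limma, 0.00%), with 554 (3.05%) at an unadjusted p under 0.05. With limma-voom on recovered reads 0 genes passed as well. Among the 7 tested members the interaction, male minus female change, was furthest from 0 in Mmp7 at -1.02 with a standard error of 0.98 (limma, adjusted p = 0.948). For Timp3 it was 0.45 with a standard error of 0.22 and an unadjusted p of 0.0718 (limma), and for Mmp14 0.02 with a standard error of 0.22. A miss in a design with 2 libraries per sex and genotype does not show that the sexes respond alike. Within a sex, the log2 change of Mmp14 was 0.65 in males (limma, adjusted p = 0.0675) and 0.62 in females (0.0177). Timp2 was at 0.58 in males (0.0424) and 0.34 in females (0.126). The share of all genes past the threshold was 12.2% in the male and 12.0% in the female libraries.

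Another 17 MMP and TIMP genes were listed by name, of which 13 were tested. Timp1, Mmp27 and Mmp23 rose, Mmp15 and Mmp17 fell, and 8 did not pass, where 13.2% of all genes tested rose and 13.0% fell. Mmp27 passed the filter only through its YAP libraries, so it had to be higher there to be tested. The median log2 change over the 13 was -0.10. Timp1, an inhibitor that many stimuli induce, had a log2 change of 1.70. It averaged 26.7 ± 5.11 scaled RPKM in YAP and 8.12 ± 1.14 in Ctrl (SD, n = 4 each), a 3.24-fold change (limma, adjusted p = 9.13e-05) that passed under all 20 alternatives. Its ratio to Timp2 was 0.305 to 0.489 in YAP and 0.115 to 0.191 in Ctrl. Timp1 thus remained below Timp2, Timp3 and Mmp14 in mean level in both groups.

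Among the membrane-anchored enzymes the changes ran in both directions. Mmp15, a transmembrane MMP related to Mmp14, averaged 5.14 ± 0.359 scaled RPKM in YAP and 7.66 ± 1.61 in Ctrl (SD, n = 4 each; log2 change -0.55, limma, adjusted p = 0.0153). Among deep libraries the change was -0.28 and did not pass (0.157), and among shallow ones it was -0.81. In the male libraries alone it was -0.48 and did not pass either. Mmp17, which is held by a lipid anchor, averaged 1.79 ± 0.226 in YAP and 2.69 ± 0.241 in Ctrl (log2 change -0.56, limma, adjusted p = 0.00622). Among deep libraries the change was -0.67, and among shallow ones it was -0.46 and did not pass (0.136). It was -0.62 in the male and -0.51 in the female libraries alone and passed in neither. Mmp16 (-0.39, 0.0601), Mmp24 (-0.10, 0.555) and Mmp25 (-0.11, 0.768), further membrane-anchored members, did not pass. Mmp16 did pass with voom (0.0259), a stricter filter (0.0375) and a pseudocount of 1 (0.041).

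Mmp23 rose by 0.32 (limma, adjusted p = 0.0451) and lost the call in 11 of 20 alternatives. Mmp27 lies in the same cluster as Mmp7, with Mmp20 between them. Mmp27 had 42 reads in YAP and 2 in Ctrl, a ratio of 20.1 with a 95% counting interval of 5.24 to 172. Mmp8, the neutrophil collagenase, had 76 reads in YAP and 45 in Ctrl and did not pass (log2 0.57, limma, adjusted p = 0.0677). It did pass without female_Ctrl replicate 1 (0.0292) and in the shallow libraries (0.0133). The shallow libraries held 7 and 15 reads of Mmp8 in YAP and 2 and 3 in Ctrl. It reached the filter there only through YAP, so it had to be higher in YAP to be tested. Mmp11 (0.12, 0.238), Mmp19 (0.38, 0.0736), Mmp28 (-0.28, 0.147) and Timp4 (-0.21, 0.439) did not pass either. Mmp19 did pass with the replicate block (0.0476), and Mmp28 without male_YAP replicate 2 (0.044). Mmp20 had 25 reads in YAP and 16 in Ctrl, Mmp1a had 1 read in YAP and 0 in Ctrl, and Mmp1b and Mmp21 had 0 in all libraries.

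**Figure D3:**
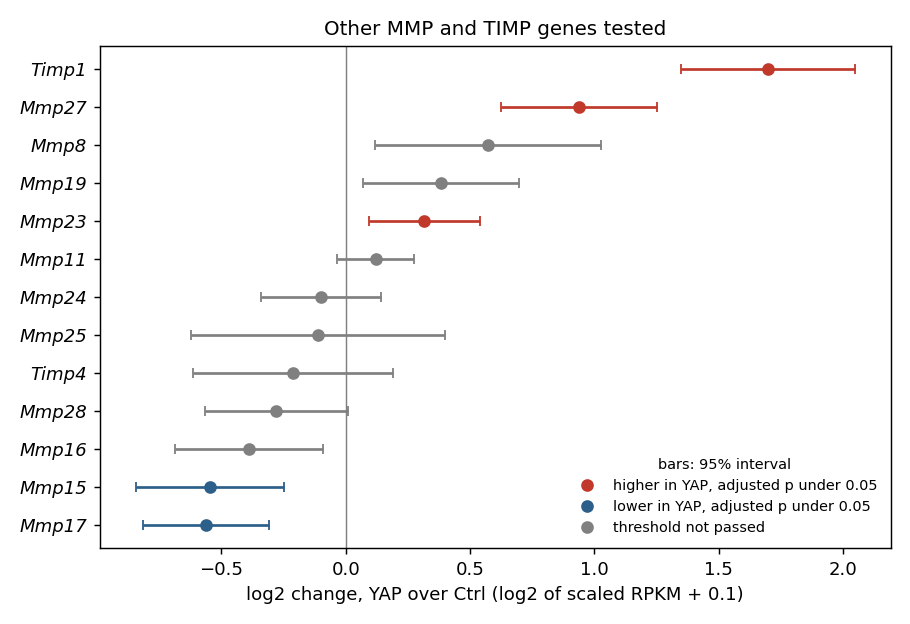
Log2 change (x axis, YAP over Ctrl, log2 of scaled RPKM + 0.1) with its 95% interval for the 13 other MMP and TIMP genes tested. Red genes were higher and blue genes lower at an adjusted p under 0.05, and grey genes did not pass. Timp1 stands furthest to the right at 1.70, and Mmp15 and Mmp17 furthest to the left at -0.55 and -0.56.

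The cluster genes lie on the same stretch of chromosome 9 as Yap1. From the start of Mmp13 to that of Yap1, which runs on the minus strand, 732.1 kb of chromosome 9 (7272514 to 8004596) hold 10 Mmp genes, then Tmem123, the apoptosis inhibitor genes Birc2 and Birc3, and Yap1. Of 16 annotated genes there that the table lists, 8 were tested, 4 rose and 1 fell, where 13.2% of all genes tested rose and 13.0% fell. Of the 4 that rose, Mmp7 and Mmp27 entered the test only through their YAP libraries, where they had to be higher. Birc3, an NF-kappaB target, rose 2.21-fold (limma, adjusted p = 0.000618) and Tmem123 1.24-fold (0.0156), while Birc2 (log2 0.13, 0.370) and Yap1 did not pass. Tmem123 missed the threshold in 6 of 20 alternatives. It missed without male_Ctrl replicate 2 (0.0607), without male_YAP replicate 1 (0.0619), and in the deep, shallow, male or female libraries alone. Mmp7 starts 312.5 kb from the start of Yap1, beyond Birc3, Birc2 and Tmem123. Within the Mmp genes, Mmp13 at the far end fell while Mmp27 and Mmp7 rose, and the levels of all 10 were below 1 scaled RPKM in both groups.

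**Figure D4:**
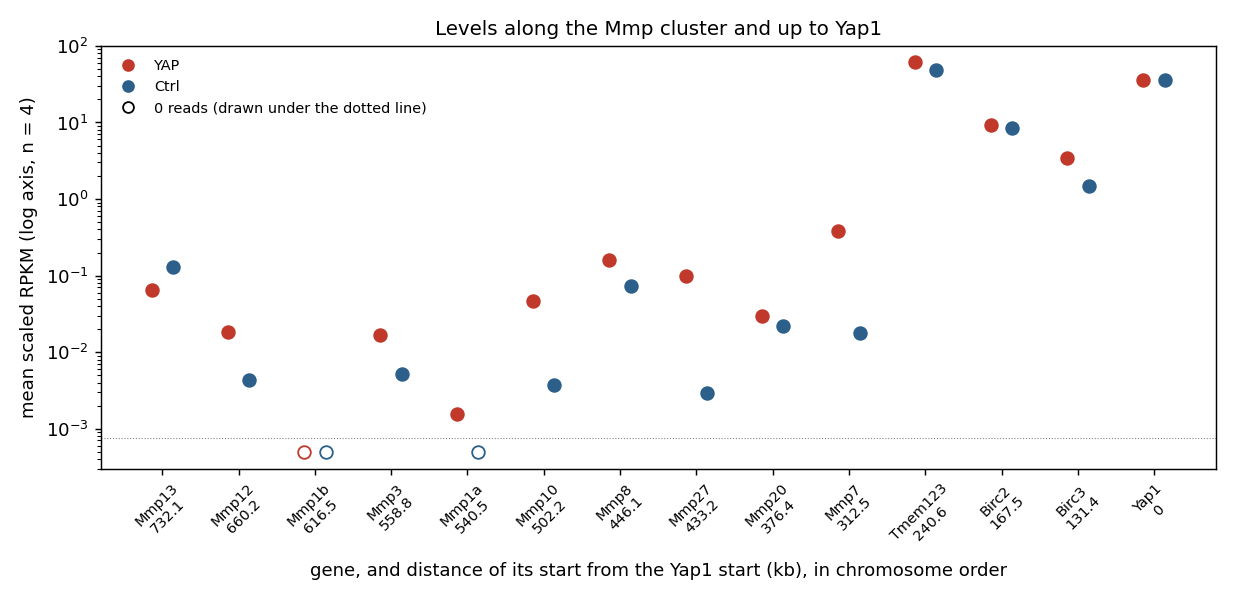
Mean scaled RPKM (y axis, log scale, n = 4 per group) of the 10 Mmp genes of the chromosome 9 cluster and their neighbours up to Yap1, in chromosome order, with YAP in red left of Ctrl in blue. The number under each gene is the distance of its start from the Yap1 start in kb, and open circles under the dotted line mark 0 reads. The Mmp genes lie below 1 and Tmem123, Birc2, Birc3 and Yap1 above it.

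Of 20 listed activators, inhibitors and surface partners of MMPs, all tested, 8 rose, 4 fell and 8 did not pass, where 13.2% of all genes tested rose and 13.0% fell. The largest rises by p were in Plaur, the urokinase receptor (12.9-fold), Thbs1, thrombospondin 1 (6.13-fold), and Plau, the urokinase that makes plasmin (3.10-fold). Cav1, caveolin 1, rose 2.79-fold and Lcn2, a lipocalin that binds MMP9, 7.85-fold. Each of these 5 passed with limma at an adjusted p of 5.07e-05 or lower, and Lcn2 alone of the 5 missed in 1 alternative, the deep libraries (0.0576). Of 17 listed ADAM, ADAMTS and ADAMTS-like genes 6 rose, 1 fell and 10 did not pass. The shares of all genes were as above (13.2% and 13.0%). Adam8 rose 2.54-fold, Adamts5 2.45-fold, Adamtsl4 1.70-fold, Adamts2 1.65-fold and Adam9 1.53-fold, and Adamts15 was 2.08-fold lower.

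Of 19 listed substrates of MMPs 8 rose, 2 fell and 9 did not pass, where 13.2% of all genes tested rose and 13.0% fell. Lamb3, a laminin chain of epithelia, rose 6.78-fold and Hbegf, a growth factor shed from the cell surface, 6.42-fold. Spp1, osteopontin, rose 5.54-fold, the cytokine gene Tnf 3.33-fold and Cd44, a hyaluronan receptor, 2.04-fold. Of 10 AP-1 subunits 9 rose and 0 fell, against the same shares of all genes. Maff rose 9.36-fold, Atf3 9.24-fold, Junb 5.66-fold, Fos 4.51-fold, Batf 1.95-fold and Fosl2 1.88-fold.

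Markers of other cells were counted in the same way, where 13.2% of all genes tested rose and 13.0% fell. All 15 macrophage markers rose, with a summed level of 364 to 433 scaled RPKM in YAP and 90.2 to 116 in Ctrl, and 0 were without reads. Of 9 tested neutrophil markers, of 11 listed, 2 rose and 7 did not pass, with sums of 29.9 to 46.0 in YAP and 17.6 to 32.4 in Ctrl. Of 13 stromal markers 2 rose, 3 fell and 8 did not pass, with a median log2 change of -0.06 and sums of 1095 to 1276 in YAP and 888 to 994 in Ctrl. Without Tagln, a smooth muscle gene left out after its values were seen (mean 431 in YAP and 165 in Ctrl), the stromal sums were 716 to 839 in YAP and 730 to 858 in Ctrl and overlapped. Of 10 endothelial markers 0 rose and 6 fell, with sums of 242 to 283 in YAP and 355 to 399 in Ctrl. Of 12 proximal tubule markers 11 fell. Of 10 distal convoluted tubule markers 8 fell and 1 rose, with sums of 663 to 788 in YAP and 1343 to 1724 in Ctrl. Of 5 thick ascending limb markers 4 fell, and of 6 podocyte markers 4 fell. Of 8 tubular injury markers 6 rose and 1 fell. The part of these cells in the levels of Mmp14, Timp2, Mmp7 and the other genes was not tested.

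Genes whose pattern was most like that of a member were found by Pearson's r of log2(scaled RPKM + 0.1) over the 8 libraries, among 14768 other genes with a mean of at least 1 read per 1000000 (14769 for Mmp7 and Mmp13, which are below that mean). These values describe 8 libraries that share a genotype split, and so carry no p. For Mmp14 the 3 genes were Slc11a1, Samd4 and Ptpn7, with r of 0.982 to 0.983. For Timp2 they were Hpcal4, Nt5c1a and Sh3bp4, with r of 0.995 to 0.996. For Timp3 they were Slco3a1 (0.989), Zfp664 and L1cam, and for Mmp13 Hist1h4d (0.991), Zfp422 and Klhl17. For Mmp2 they were Emsy (0.976), LOC108168747 and Mical1. Mmp7 was closest to Zfyve1 (0.981), Qars and Zim1. Mmp9 had the lowest values, with 0.908 for Fam78a, then Serpinf1 and Hs3st1. No gene was named for more than 1 member.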

How the data were processed

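Poly(A) RNA of 8 mouse kidney libraries had been sequenced. The authors deposited 1 table of RPKM values for 35976 genes. Reads were aligned to mm10 with STAR and counted with featureCounts, per the submitters' processing notes. Versions, the strand setting and the handling of shared reads are not stated in the sources used here, and close relatives and overlapping genes are therefore uncertain. Multiplying the deposited RPKM by gene length and dividing by the value of 1 read gave whole reads, within 0.01, for 100% of 179720 nonzero values. The file holds no counts as such, so the main test was limma 3.58.1 (R 4.3.3, trend and robust settings) on log2(scaled RPKM + 0.1), with genotype and sex as terms. RPKM was scaled by TMM factors of 0.975 to 1.02, and the fold understates changes of low genes. A gene was tested if 2 or more libraries had 0.2 reads per 1000000 and the total was 15 reads or more. The code was tested on simulated data.

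The members and lists were chosen with earlier results of these data known. Genes named from a list are among the 6 with the lowest p, of which some are not reported here, and 3 most similar genes were named per tested member. Alternatives changed the pseudocount, filter, scaling and replicates, used limma-voom on recovered reads, or split the libraries by depth or sex. Coordinates are those of GENCODE M21 (GRCm38, the same assembly as mm10), and promoters those of RefSeq. Same-numbered libraries of different groups had deviations correlated from -0.003 to 0.379, so the number, which also marks depth, was not taken to pair animals.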

Additional observations from a re-analysis of the deposited data

Results flagged for a closer look

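Among 104 groups of 4 libraries, covering the levels of 52 genes named here, 6 had 1 library set apart from the other 3 by more than Dixon's 95% limit, and chance alone flags about 1 group in 20. Of the MMP genes, Mmp2 was at 47.8 scaled RPKM in male YAP replicate 1, below the other 3 YAP libraries. Mmp13 was at 0.0317 in male YAP replicate 2, where it had 2 reads. Mmp10 was at 0.0149 in female Ctrl replicate 1, the only Ctrl library with reads of it. Mmp11 was at 17.3 in male Ctrl replicate 2. Adam9 was at 26.4 and Atf3 at 25.8 in male YAP replicate 2.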

How the results depend on the processing

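Of all genes, 4745 passed for genotype, with 3625 to 4820 when 1 library was left out, 2154 in male libraries only and 2116 in female libraries only. With the replicate block 5473 passed, and the block changed the call of 0 of the 7 tested MMP and TIMP members, while Mmp19 passed with it (adjusted p = 0.0476 from limma). Of these members 4 passed, with 2 under a pseudocount of 1, 2 with no filter, 2 with a stricter filter, 1 in males only, 1 in females only, and 2 to 4 with 1 library left out. Mmp7 and Mmp13 made up the calls lost in fits of all 8 libraries. Under the stricter filter both were left out and so were not tested. For the interaction 0 genes passed, with 1 under a pseudocount of 1, 1 with the replicate block and 0 to 1 with 1 library left out. The sign turned only in genes that did not pass. Mmp9 was at -0.004 in the shallow and -0.127 in the female libraries, Yap1 at -0.112 and -0.083, and Birc2 at -0.001 in the deep ones. Mmp25 was at 0.025 with voom, 0.187 in the deep and 0.05 in the male libraries. With 1 library left out, log2 changes ran from -0.022 to 0.072 in Mmp2, from -0.323 to 0.028 in Mmp25 and from -0.079 to 0.062 in Yap1. The interactions ran from -0.086 to 0.170 in Mmp2 and from -0.166 to 0.201 in Mmp14. The cause of these shifts was not tested. Depth limits Mmp3, Mmp10 and Mmp12, which had too few reads to test.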
